A study of Mus musculus with 12 samples.

Results

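The ephrins and Eph receptors of 2 fetal liver cell lines are described here, over adherent culture and over 1 and 5 days of culture as aggregates. The members were the 10 genes Epha1, Epha2, Epha4, Epha7, Ephb2, Ephb3, Ephb4, Efna1, Efnb1 and Efnb2, taken by their symbols in the annotation of the array, and each gene was read from whichever of its probe sets had the highest mean over the arrays. Of these, 9 had a probe set named, which were 6 receptors and 3 ligands with 24 probe sets between them, out of 18193 genes in the whole table. The level of Ephb2 was not analysed here, and only its promoter is counted below. All 9 passed the filter on low values, which asked for 2 or more arrays with a log2 level of 5 or above.

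Eph receptors are the largest family of receptor tyrosine kinases, and their ligands, the ephrins, sit on the membrane of the neighbouring cell, so that signalling takes place at contacts between cells. Ephrin-A ligands are held by a lipid anchor and bind mainly EphA receptors, while ephrin-B ligands span the membrane and bind mainly EphB receptors. The signal runs into both cells, and it is known for adhesion, repulsion and the sorting of cells into compartments, in gut epithelium and in vessels among other tissues.

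RNA levels were read on 12 Affymetrix whole-genome mouse arrays from biotin-labelled total RNA. Bipotential mouse embryonic liver (BMEL) lines are epithelial lines that can take on hepatocyte or bile duct features, and both lines, 9A1 and 14B3, were derived from liver at day 14 post coitum of embryos bred by crossing CBA/J x C57Bl/6J. Each line was sampled in basal culture, after 1 day as aggregates and after 5 days as aggregates, in duplicate as biological replicates, so that each of the 3 cultures had 4 arrays. Each line is a single isolate, so a difference between 9A1 and 14B3 is one between isolates, and as the labels do not name separate cultures behind the replicates, p-values measure only the spread between these samples, which may be technical.

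Values are log2 levels, each unit being a doubling, and a change is a difference of log2 levels with its standard error from limma over 4 arrays in each culture. A gene rose or fell where the Benjamini-Hochberg adjusted p over the 15781 genes tested was under 0.05. In bulk RNA of this kind, fewer cells that carry a transcript and less of it in each cell cannot be told apart.

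An array that stood apart touches several results. Basal 9A1 replicate 1 correlated with its replicate at 0.952 over probe sets and most closely, at 0.976, with an array from 5 days of aggregate culture. Along the first principal component (53.6% of the variance) it scored 13.0, against -102.9 to -90.9 for the other basal arrays, -33.3 to -1.8 on day 1 and 80.7 to 110.3 on day 5. The values of day 1 9A1 replicate 2 were the least spread, with an SD of 2.13 where the other arrays had 2.25 to 2.33. Of the labelled cell type's markers, 9 of 10 were named and all 9 were at 5 or above on all 12 arrays, with Krt8 at 14.01 to 14.23, Cdh1 at 11.45 to 12.30 and Hnf4a at 10.98 to 12.67. Between day 5 and basal culture 4 of the 9 rose (Cdh1, Epcam, Hnf4a and Alb), where 16.9% of all genes did. In the same comparison 2 fell (Krt18 and Foxa2), where 18.5% of all genes did. Epcam reached 12.63 on basal 9A1 replicate 1, where the remaining basal arrays had 6.86 to 7.48. Of the endothelial markers, which matter because vessels use Ephb4 and Efnb2, Tek was under 5 on every array and Pecam1 lay between 4.63 and 5.34, while 4 of the 10, Eng (7.79 to 8.29), Kdr (5.76 to 6.97), Cldn5 and Esam, were at 5 or above on all arrays. On basal 9A1 replicate 1, however, Cdh5 reached 7.65 and Vwf 7.25, against at most 5.65 and 4.99 on the other 11 arrays, and the mean of the 10 endothelial markers was 5.93, against 5.34 to 5.53 on the other basal arrays, 5.32 to 5.71 on day 1 and 5.42 to 5.48 on day 5. The part of these differences in the results below was not tested, and values without this array are given where they change a call. Leaving out any 1 array leaves its group with a single array, whose spread is then taken from the other groups. Calls gained without this array are therefore not firmer than those over all arrays.

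After 5 days as aggregates, receptors and ligands among the measured members differed from basal culture. Of the 9 members, 6 passed the test between day 5 and basal culture, where 35.4% of all genes tested did. The receptor Epha1 and the ligands Efna1 and Efnb1 rose, 3 members where 16.9% of all genes rose, and the receptors Epha2, Epha4 and Ephb3 fell, 3 members where 18.5% fell. The day 5 and basal arrays did not overlap for 3 of 9 members, Epha1, Epha4 and Ephb3, and for 38.8% of all genes. The sizes reached 7.28-fold for the rise of Efna1 and 7.12-fold for the fall of Epha4. Without basal 9A1 replicate 1 there were 7 calls, Efnb2 being the addition, where 40.4% of all genes passed. The median change of the 9 members was -0.22, against 0.01 over all genes tested. The median size of change regardless of sign was 0.82, against 0.13 for the 9 other family genes tested, of which 2 passed, and 0.31 over all genes. The members were chosen with earlier results of these data known, so these shares and sizes do not test whether members changed more than other genes. The other family genes also differed in level, from Epha5 with culture means of 4.83 to 4.89 to Efna4 with 7.53 to 8.67.

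On day 1 fewer members had changed, 3 of 9, where 14.0% of all genes passed. Epha2 fell, as did 8.8% of all genes, and Epha7 and Ephb4 rose, as did 5.25%. For the same 3 members the day 1 arrays did not overlap the basal arrays, which held for 14.3% of all genes. Between day 1 and day 5 the count was again 6 of 9, where 21.7% of all genes passed. Epha1 and Efna1 rose, as did 1848 of the 15781 genes tested. Epha4, Epha7, Ephb3 and Ephb4 fell, as did 1582 of the genes tested. Here 6 members did not overlap, against 27.1% of all genes. They were Epha1, Epha4, Epha7, Ephb4, Efna1 and Efnb2. With basal 9A1 replicate 1 left out, 5 members were called on day 1, where 22.6% of all genes were. Epha4, Efna1 and Efnb1 then entered, and Ephb4 dropped out, at 0.41 ± 0.14 (adjusted p = 0.0717). Between the aggregate cultures 7 were called without that array, where 27.4% of all genes were, the addition being Efnb2. The day 1 and day 5 comparisons use the same basal arrays, and both comparisons of day 5 use the same day 5 arrays, so they are set side by side and not counted as separate evidence. The members thus fell into several time courses, which the panels of levels by array show.

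**Figure D1:**
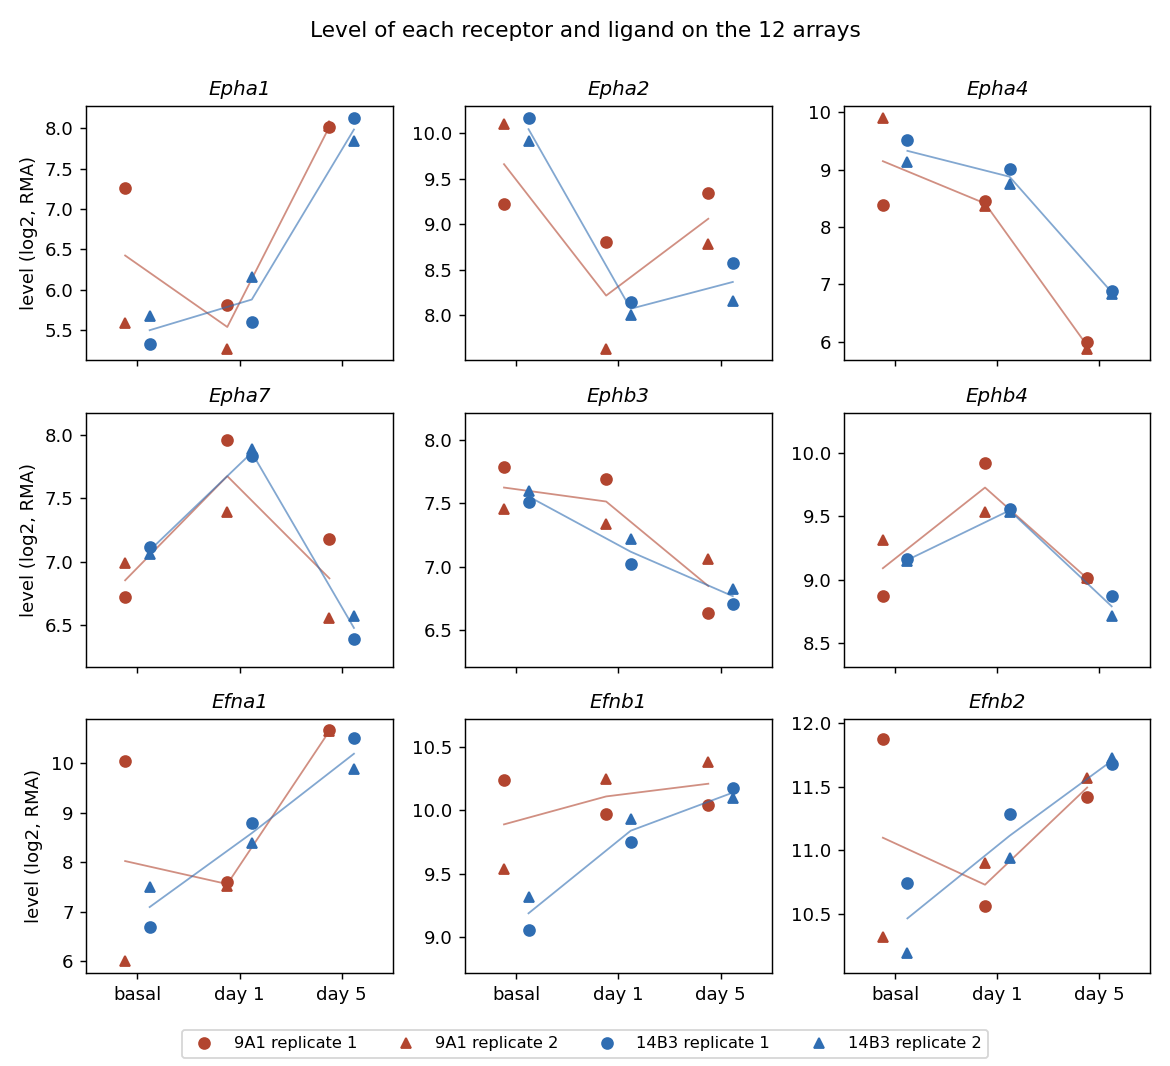
Log2 level (vertical axes) of the 9 measured members on each of the 12 arrays in basal culture, on day 1 and on day 5 (horizontal axes), with 9A1 in red to the left of 14B3 in blue, replicate 1 as circles, replicate 2 as triangles and lines joining the mean of each line. Epha1 stood at 7.84 to 8.13 on day 5 and Epha4 at 5.88 to 6.89, both clear of their basal arrays, while Efna1 on basal 9A1 replicate 1 was at 10.05, apart from the other 3 basal arrays.

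The upstream sequences of the 4 members whose changes are most described below are shown to set the promoters of genes that rose beside those of genes that fell. They are the 250 bases before the annotated start, from RefSeq on assembly GRCm38.p6, written 5′ to 3′ on the strand of the gene. Epha2 (fell) lies at chr4:141300971-141301220 on the plus strand, Epha4 (fell) at chr1:77515089-77515338 on the minus strand, Epha1 (rose) at chr6:42373269-42373518 on the minus strand, and Efna1 (rose) at chr3:89280952-89281201 on the minus strand, the farther upstream of its annotated starts. Capitals mark the TEAD motif GGAATG, or CATTCC where it reads on the other strand.
Epha2: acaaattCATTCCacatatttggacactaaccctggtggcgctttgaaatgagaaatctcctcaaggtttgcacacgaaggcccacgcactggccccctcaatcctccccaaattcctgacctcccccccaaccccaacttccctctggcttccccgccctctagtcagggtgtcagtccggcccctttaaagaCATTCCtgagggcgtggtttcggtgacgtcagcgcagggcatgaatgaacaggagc
Epha4: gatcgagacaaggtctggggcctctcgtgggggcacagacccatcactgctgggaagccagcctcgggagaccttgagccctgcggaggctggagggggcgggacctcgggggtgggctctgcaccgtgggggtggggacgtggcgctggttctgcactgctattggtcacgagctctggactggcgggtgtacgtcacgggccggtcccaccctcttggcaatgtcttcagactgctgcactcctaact
Epha1: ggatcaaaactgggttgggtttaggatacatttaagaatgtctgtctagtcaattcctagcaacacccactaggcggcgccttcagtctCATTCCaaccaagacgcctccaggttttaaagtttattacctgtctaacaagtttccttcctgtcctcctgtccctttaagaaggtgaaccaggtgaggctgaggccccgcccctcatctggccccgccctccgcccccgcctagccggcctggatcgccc
Efna1: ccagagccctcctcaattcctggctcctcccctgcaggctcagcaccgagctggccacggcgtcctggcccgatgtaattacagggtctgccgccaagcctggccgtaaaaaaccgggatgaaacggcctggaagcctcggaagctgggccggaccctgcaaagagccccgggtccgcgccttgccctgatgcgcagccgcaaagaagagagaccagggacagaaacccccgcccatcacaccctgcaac
Epha2 held the TEAD motif starting 243 and 56 bases before its start and Epha1 held it 161 bases before, so that a gene that fell and a gene that rose both carried it, while the windows of Epha4 and Efna1 had none. Among all 10 members, with 12 promoters, 3 genes had a match, the other being Efnb2. Over 300 bases, 250 before to 50 after the start, 14.7% of the 32851 promoters in the table hold this motif on either strand. No member promoter held the TCF motif ATCAAAG, the AP-1 motif TGANTCA or the HNF4 motif CAAAGTC, which 3.7%, 7.8% and 4.4% of all promoters hold; the TCF and HNF4 motifs share letters and can overlap. G and C made up 55.6% of the window of Epha2, 66.0% of that of Epha4, 54.4% of that of Epha1 and 64.8% of that of Efna1. A match is a run of letters, not a bound site, and a window with none says nothing of the factor.

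Among the A-class receptors, Epha1 and Epha4 changed in opposite directions by day 5. Epha1, a receptor of epithelial cells that binds ephrin-A1, is on chromosome 6 at 42358487 to 42373314 (GRCm38). Its basal levels were 7.26 and 5.59 in 9A1 and 5.33 and 5.67 in 14B3. On day 1 they were 5.81 and 5.27 in 9A1 and 5.60 and 6.16 in 14B3. On day 5 they were 8.01 and 8.03 in 9A1 and 8.13 and 7.84 in 14B3. All 4 day 5 arrays lay above every basal and day 1 array, and the day 5 arrays differed among themselves by less than the arrays of any other culture. Epha1 rose by 2.04 ± 0.33 between day 5 and basal culture, 4.11-fold (adjusted p = 0.00148), and by 2.29 ± 0.33 between day 5 and day 1 (adjusted p = 0.00194). Between day 1 and basal culture the change was -0.25 ± 0.33 (adjusted p = 0.711), so the rise fell in the interval after day 1. All 3 of its probe sets rose by day 5, by 2.04, 0.97 and 0.50. The last of these was near the floor, between 4.61 and 5.40, with 6 arrays under 5. Between day 5 and day 1, 2 of the 3 were called, and the other was at 0.43 ± 0.15 (adjusted p = 0.0789).

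Epha4 differs from the other EphA receptors in binding several ephrin-B ligands as well as ephrin-As. It lies on chromosome 1 at 77367182 to 77515107. In basal culture it stood at 8.39 and 9.90 in 9A1 and 9.52 and 9.13 in 14B3. The day 1 levels were 8.46 and 8.36 in 9A1 and 9.01 and 8.74 in 14B3. By day 5 they were 5.99 and 5.88 in 9A1 and 6.89 and 6.84 in 14B3. On the probe set that stands for the gene, no day 5 array came within a log2 unit of any earlier array. The fall between day 5 and basal culture was -2.83 ± 0.28 (adjusted p = 0.000157), and between day 5 and day 1 it was -2.24 ± 0.28 (adjusted p = 0.00106). On day 1 the difference from basal culture was -0.59 ± 0.28 (adjusted p = 0.229), but without basal 9A1 replicate 1 it was -0.97 and passed the test. All 4 of its probe sets that were tested fell by day 5, with changes between -3.87 and -1.63, and the remaining probe set was under 5 on all 12 arrays. Between day 5 and day 1, 3 of the 4 were called, the exception being at -0.88 ± 0.29 (adjusted p = 0.063). On that exception day 5 9A1 replicate 1 and day 1 9A1 replicate 2 were both at 6.78. On the probe set with the largest fall the day 5 levels were 4.38 and 4.06 in 9A1 and 5.55 and 5.89 in 14B3, against 8.15 and 9.32 in basal 9A1 and 9.15 and 8.72 in basal 14B3.

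Epha2, the chief epithelial receptor of ephrin-A1, found at cell contacts, fell early. It lies on chromosome 4 at 141301221 to 141329384. Basal levels were 9.22 and 10.10 in 9A1 and 10.17 and 9.92 in 14B3. Day 1 levels were 8.80 and 7.63 in 9A1 and 8.14 and 8.00 in 14B3. Day 5 levels were 9.34 and 8.78 in 9A1 and 8.57 and 8.16 in 14B3. Every day 1 array was below every basal array, and on day 5 a single array, 9A1 replicate 1, reached into the basal range, which it did through basal 9A1 replicate 1 at 9.22, the other 3 basal arrays being at 9.92 or above. The fall on day 1 was -1.71 ± 0.29, 3.28-fold (adjusted p = 0.00624), and on day 5 -1.14 ± 0.29, 2.21-fold (adjusted p = 0.0139). The difference between day 5 and day 1, 0.57 ± 0.29, did not pass the test (adjusted p = 0.225). The call on day 5 was lost without basal 14B3 replicate 1, without day 5 9A1 replicate 2 or without day 5 14B3 replicate 2, with an adjusted p of at most 0.0577 and a change of -1.36 to -0.92 over all single arrays left out. Epha2 had a single probe set.

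Epha7, a receptor of ephrin-A ligands known from the developing nervous system, was highest on day 1. It lies on chromosome 4 at 28813066 to 28967503. Its levels were 6.72 and 6.99 in basal 9A1 and 7.12 and 7.06 in basal 14B3. They were 7.96 and 7.39 in 9A1 and 7.83 and 7.89 in 14B3 on day 1. On day 5 they were 7.18 and 6.56 in 9A1 and 6.39 and 6.57 in 14B3. On the probe set that stands for the gene, the 4 day 1 arrays lay above all the other 8, and basal and day 5 arrays overlapped. Epha7 rose by 0.79 ± 0.18 between day 1 and basal culture (adjusted p = 0.0221) and fell between day 5 and day 1, at -1.09 ± 0.18 (adjusted p = 0.00378). Between day 5 and basal culture the difference was -0.30 ± 0.18 (adjusted p = 0.274). The rise on day 1 missed the threshold without any 1 of the 4 basal or day 1 arrays of 14B3, with an adjusted p of up to 0.0847. Of its 3 tested probe sets all had a higher mean on day 1, by 0.79, 0.73 and 1.14, but only the first passed the test. For the fall between day 5 and day 1 too, 1 of the 3 was called. On the other 2, day 1 9A1 replicate 2 was at 6.16 and 5.52, against basal levels of 5.87 to 6.76 and 5.69 to 6.25. A further probe set was under 5 on all 12 arrays.

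**Figure D2:**
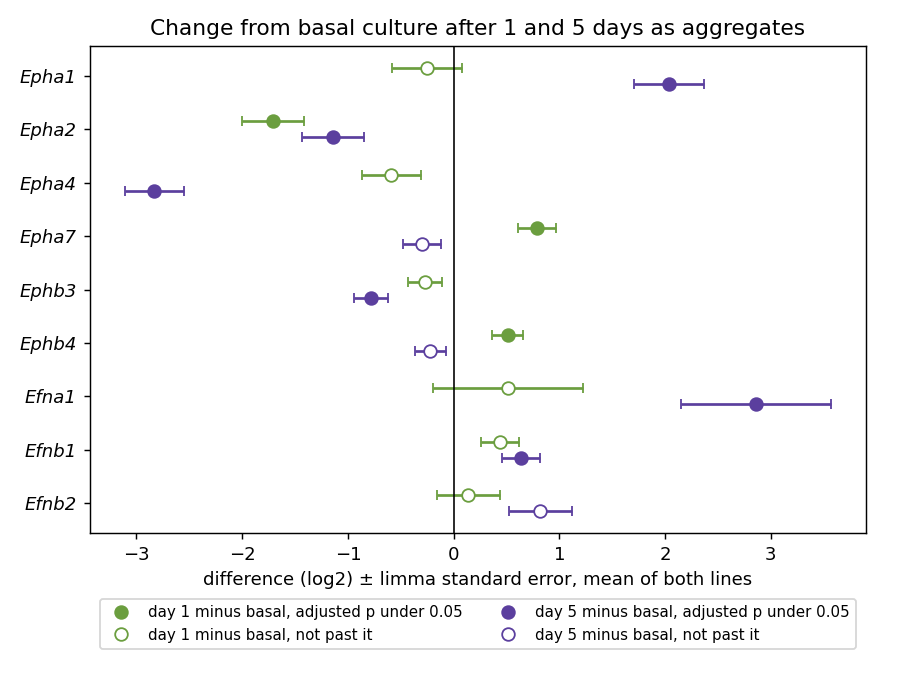
Log2 change on day 1 and on day 5 relative to basal culture (horizontal axis) for the 9 measured members, averaged over both lines, with bars of 1 standard error from limma and filled points where the adjusted p was under 0.05. On day 5 Epha1 and Efna1 stood 2.04 and 2.86 above basal culture and Epha4 at -2.83, each without a call on day 1 over all arrays, and Epha2 had its larger change, -1.71, on day 1.

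Of the B-class receptors, Ephb3 fell by day 5 and Ephb4 rose on day 1. Ephb3, a receptor of ephrin-B ligands that helps to place cells along the crypts of the gut, lies on chromosome 16 at 21204620 to 21223309. It stood at 7.79 and 7.46 in basal 9A1 and 7.51 and 7.60 in basal 14B3. On day 1 it was at 7.69 and 7.34 in 9A1 and 7.02 and 7.22 in 14B3. On day 5 it was at 6.64 and 7.06 in 9A1 and 6.71 and 6.83 in 14B3. The day 5 arrays lay below all basal arrays, and the day 1 arrays overlapped both. Ephb3 fell by 0.78 ± 0.16 on the log2 scale between day 5 and basal culture, 1.71-fold (adjusted p = 0.00449). The fall between day 5 and day 1, -0.51 ± 0.16, was just inside the threshold (adjusted p = 0.0488), and it passed in 3 of the 12 fits that left out 1 array. It was represented by 1 probe set.

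Ephb4, the receptor of ephrin-B2 known from veins, lies on chromosome 5 at 137350109 to 137374522 and followed a course like that of Epha7. Its basal levels were 8.87 and 9.31 in 9A1 and 9.16 and 9.15 in 14B3. Its day 1 levels were 9.92 and 9.53 in 9A1 and 9.56 and 9.53 in 14B3. Its day 5 levels were 9.01 and 9.01 in 9A1 and 8.87 and 8.71 in 14B3. The day 1 arrays were above all others, and the highest was 9A1 replicate 1. The rise between day 1 and basal culture, 0.51 ± 0.15 or 1.43-fold, was near the threshold (adjusted p = 0.0477) and passed in 3 of the 12 fits that left out 1 array, with an adjusted p of up to 0.153. Without basal 9A1 replicate 1 it was missed (adjusted p = 0.0717). The fall between day 5 and day 1, -0.73 ± 0.15 (adjusted p = 0.00786), passed in all 12. Day 5 differed from basal culture by -0.22 ± 0.15 (adjusted p = 0.312).

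On the ligand side, Efna1 had the largest rise of the 9 members by day 5 and the widest spread in basal culture. Efna1 encodes ephrin-A1, the lipid-anchored ligand that Epha2 and Epha1 bind, and lies on chromosome 3 at 89271730 to 89280951. Its basal levels were 10.05 and 5.99 in 9A1 and 6.69 and 7.49 in 14B3. The day 1 levels were 7.59 and 7.52 in 9A1 and 8.79 and 8.38 in 14B3. The day 5 levels were 10.66 and 10.64 in 9A1 and 10.50 and 9.88 in 14B3. Basal 9A1 replicate 1 alone reached the day 5 range; the other 3 basal arrays were lower than every day 1 and day 5 array. Efna1 rose by 2.86 ± 0.71 between day 5 and basal culture, 7.28-fold (adjusted p = 0.0114), and by 2.35 ± 0.71 between day 5 and day 1 (adjusted p = 0.0425). With basal 9A1 replicate 1 left out the change on day 5 was 3.88, and without basal 9A1 replicate 2 it was 1.85, and all 12 fits that left out 1 array passed, with an adjusted p of at most 0.0462.

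The day 1 value of Efna1 rested on the same array. Over all arrays it was 0.51 ± 0.71 (adjusted p = 0.725). Without basal 9A1 replicate 1 it was 1.53, with an SE of 0.24 taken from the other groups, and without basal 9A1 replicate 2 it was -0.50. The change between day 5 and day 1 kept to 2.20 to 2.51 in these fits but passed in 2 of 12. Both probe sets of Efna1 rose by day 5, by 2.86 and 3.12.

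The ephrin-B ligands were at their highest mean on day 5 with smaller differences. Efnb1, which encodes the transmembrane ligand ephrin-B1, lies on chromosome X at 99136061 to 99149022. Its levels were 10.24 and 9.54 in basal 9A1 and 9.06 and 9.32 in basal 14B3. They were 9.97 and 10.25 in 9A1 and 9.75 and 9.93 in 14B3 on day 1. They were 10.04 and 10.38 in 9A1 and 10.18 and 10.10 in 14B3 on day 5. The overlap of day 5 with basal culture came from basal 9A1 replicate 1. Efnb1 rose by 0.64 ± 0.18 on day 5, 1.56-fold (adjusted p = 0.0202), and all 3 of its probe sets rose, by 0.64, 1.07 and 0.87. The call on day 5 was lost when any of 4 arrays was left out, basal 14B3 replicate 1, day 5 9A1 replicate 2 and both of 14B3 on day 5, with an adjusted p of up to 0.0821. On day 1 the difference was 0.44 ± 0.18 (adjusted p = 0.150), and it passed without basal 9A1 replicate 1, at 0.61.

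Efnb2 encodes ephrin-B2, the transmembrane partner of Ephb4 known from arteries, and lies on chromosome 8 at 8617235 to 8661242. In basal culture it was at 11.88 and 10.32 in 9A1 and 10.74 and 10.19 in 14B3. On day 1 it was at 10.56 and 10.90 in 9A1 and 11.29 and 10.94 in 14B3. On day 5 it was at 11.42 and 11.57 in 9A1 and 11.68 and 11.73 in 14B3. All day 5 arrays were above all day 1 arrays, and the highest value of the 12 was that of basal 9A1 replicate 1. The difference between day 5 and basal culture, 0.82 ± 0.30, did not pass the test (adjusted p = 0.0629), nor did that between day 5 and day 1, 0.67 ± 0.30 (adjusted p = 0.154). Without basal 9A1 replicate 1 the difference between day 5 and basal culture was 1.21 and passed, and without basal 9A1 replicate 2 it was 0.43. The difference between day 5 and day 1 stayed at 0.67 and passed when either of these basal arrays was left out of the shared estimate of spread (adjusted p = 0.00997 without replicate 1 and 0.00974 without replicate 2), and with only the day 5 and day 1 arrays in the fit (SE 0.13, adjusted p = 0.00691). All 4 of its probe sets were higher on day 5, by 0.55 to 0.82, and 0 passed. The plot of changes by probe set sets these genes beside each other.

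**Figure D3:**
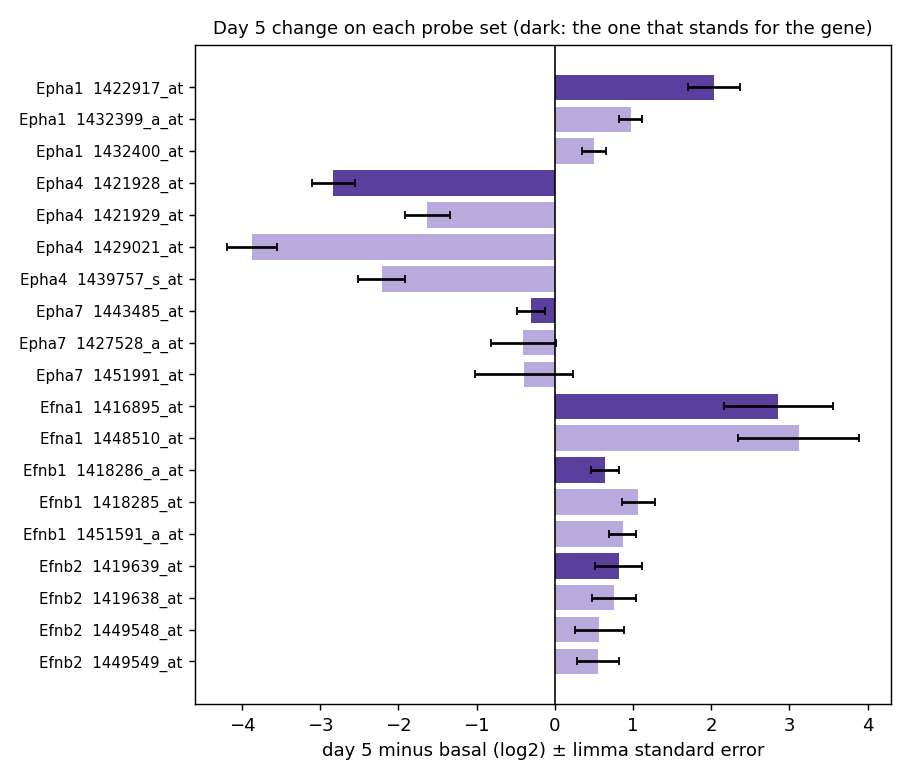
Log2 change on day 5 relative to basal culture (horizontal axis) on each of the 19 tested probe sets of the 6 members with more than 1, as bars from 0 with 1 standard error from limma, grouped by gene down the page, the dark bar being the probe set that stands for the gene. The bars of a gene point the same way, from -3.87 to -1.63 for Epha4 and from 0.50 to 2.04 for Epha1.

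Day 5 minus basal had the same sign in both lines for each of the 9 members except Epha7. As contrasts within the fit to all arrays, limma called 2 of 9 in 9A1, where 15.2% of all genes passed. In 14B3 it called 6 of 9, where 26.7% did. Both lines thus shared an estimate of spread for each gene, with an SE of 1.00 for Efna1 in each. Differences between replicates, however, had an SD of 0.896 in basal 9A1 and 0.253 in basal 14B3. The p-values of each line therefore also carry the spread of the other. In 9A1 the calls were Epha4, at -3.21 ± 0.40 (adjusted p = 0.00144), and Ephb3, at -0.77 ± 0.22 (adjusted p = 0.0472). In 14B3 they were Epha1, Epha2, Epha4, Ephb3, Efna1 and Efnb1. Epha1 was higher on day 5 by 1.59 ± 0.47 in 9A1 (adjusted p = 0.0503) and by 2.48 in 14B3 (adjusted p = 0.00549). Efna1 was higher by 2.63 ± 1.00 in 9A1 (adjusted p = 0.113) and by 3.10 in 14B3 (adjusted p = 0.0474). These unequal counts are not themselves a test of unequal responses. The test of the difference between the lines called 0 of 9 members by limma, where 0.038% of all genes passed. Its standard errors ran from 0.29 for Ephb4 to 1.41 for Efna1, so it does not show equal responses either. The differences of the day 5 response, 9A1 minus 14B3, lay between -0.89 and 1.08 with an adjusted p of 1, and 0 had an unadjusted p under 0.05.

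The day 1 response of each line was a contrast of the same fit. In 14B3 limma called 1 of 9 members, Epha2 at -1.98 ± 0.42 (adjusted p = 0.0242), where 8.57% of all genes passed. In 9A1 it called 0 of 9, where 1.88% did. The difference between the lines in this response lay between -1.96, for Efna1, and 0.53, with 0 of 9 called, where 0.0% of all genes passed, and 0 at an unadjusted p under 0.05. These differences rest on the basal 9A1 arrays. Without basal 9A1 replicate 2, replicate 1 is the only basal 9A1 array and is assumed to vary like the other groups. The day 1 differences were then -3.99 for Efna1, -1.80 for Efnb2 and -2.10 for Epha1. For day 5 they were -2.50 for Efna1 and -1.62 for Efnb2.

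**Figure D4:**
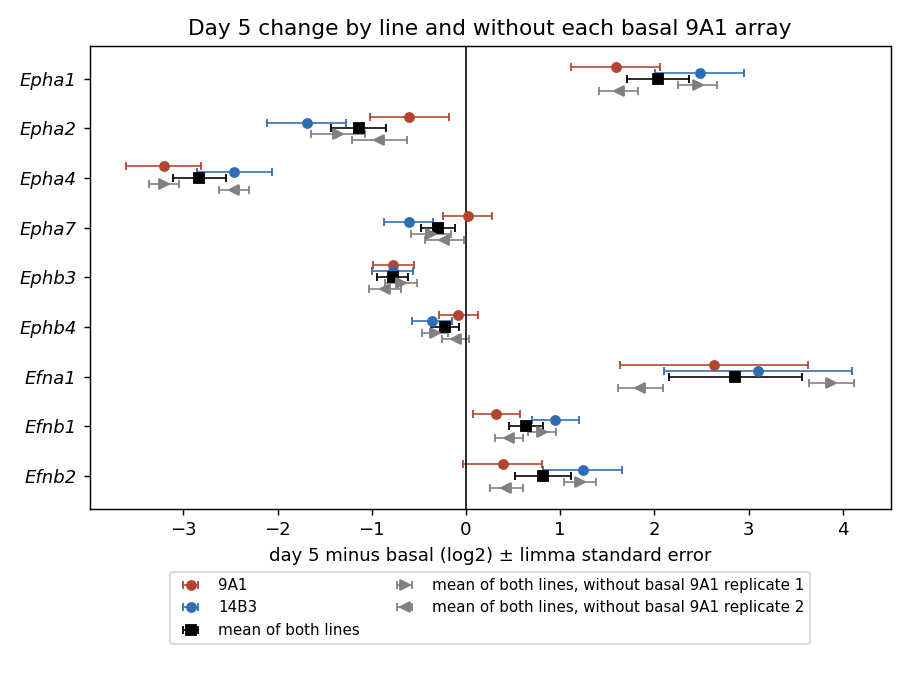
Log2 change on day 5 relative to basal culture (horizontal axis) for the 9 measured members in 9A1 alone, in 14B3 alone, averaged over both lines, and averaged without basal 9A1 replicate 1 or replicate 2. The change of Efna1 was 3.88 without replicate 1 and 1.85 without replicate 2, while that of Ephb3 stayed between -0.88 and -0.67 over all arrays left out in turn.

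The levels of the members in 9A1 and 14B3 were not told apart by the test. Averaged over the cultures, 9A1 minus 14B3 lay between -0.52, for Epha4, and 0.34, for Efnb1, and limma called 0 of 9 members, where 0.272% of all genes passed. The lowest adjusted p was 0.452, and 1 member, Efnb1, had an unadjusted p under 0.05. On day 5 the differences ran between -0.93 for Epha4 and 0.70 for Epha2. The test on day 5 called 0 of 9 members, where 0.247% of all genes passed. Both 9A1 arrays were lower than both 14B3 arrays on day 5 for Epha4 and Efnb2, and higher for Epha2, Ephb4 and Efna1. The share of all genes separated in this way was not counted, so this ordering does not set these members apart. Without basal 9A1 replicate 2, which leaves a single basal 9A1 array, the difference was -0.77 for Epha4 and 0.79 for Efna1. In that fit more of all genes also passed between the lines than with all arrays.

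The other genes of the family were 12, of which 9 passed the filter on low values and were tested. Of these, 2 fell by day 5, both lipid-anchored ligands of the A class, and 0 rose, where 35.4% of all genes passed and 18.5% fell. Efna5, which encodes ephrin-A5, had 7.13 and 6.86 in 9A1 and 7.57 and 6.60 in 14B3 on day 5, against 7.65 and 9.18 in basal 9A1 and 8.73 and 8.58 in basal 14B3, and fell by 1.49 ± 0.33 (adjusted p = 0.00734). Its other tested probe set was not called, at -0.30 ± 0.16 (adjusted p = 0.205). Efna4, which encodes ephrin-A4, had 7.89 and 6.96 in 9A1 and 7.42 and 7.85 in 14B3 on day 5, against 8.30 and 8.61 in basal 9A1 and 8.19 and 8.53 in basal 14B3, and fell by 0.88 ± 0.25 (adjusted p = 0.0221). For both, every day 5 array was below every basal array. Efna1, Efna3 and Efna4 are neighbours on chromosome 3, starting at 89271730, 89313899 and 89333393, and of the 3 Efna1 rose, Efna4 fell and Efna3 was not called. Epha3, Epha6 and Ephb6 did not pass the filter. On day 1, limma called 0 of these 9 genes, where 14.0% of all genes passed, and the changes lay between -0.23 and 0.26.

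Genes of Eph and ephrin signalling were described by a list of 55, of which 50 were tested. The list held genes that act inside the cell and also membrane proteases such as Mmp14. On day 5, 19 of the 50 passed, a share near the 35.4% of all genes, and the median change of the 50 was 0.06. Of the 50, 13 rose, where 16.9% of all genes did, and 6 fell, where 18.5% did. Among those that rose were the transcription factor Stat3, by 1.39 ± 0.20 (adjusted p = 0.000791), the polarity protein gene Pard6b, by 1.30 ± 0.38 (adjusted p = 0.0253), and Arhgef16, an exchange factor for small GTPases, by 1.29 ± 0.24 (adjusted p = 0.00273). The falls were led by Mmp14, a membrane-bound protease that cleaves Epha2, at -1.97 ± 0.37 (adjusted p = 0.00302), the Rac exchange factor Tiam1, at -1.87 ± 0.26 (adjusted p = 0.000644), and the kinase Abl2, at -1.11 ± 0.20 (adjusted p = 0.00249).

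On day 1, 7 of the 50 passed, where 14.0% of all genes did. There were 5 rises, where 5.25% of all genes rose, and 2 falls, where 8.8% fell. Pik3r1, a regulatory subunit of PI3-kinase, rose by 1.18 ± 0.21 (adjusted p = 0.0066), Stat3 by 1.09 ± 0.20 (adjusted p = 0.00802) and the adaptor Grb7 by 0.72 ± 0.18 (adjusted p = 0.0307). Tiam1 fell, at -1.33 ± 0.26 (adjusted p = 0.01), as did the phosphatase Acp1, at -0.49 ± 0.11 (adjusted p = 0.0211). Between day 5 and day 1, 9 of the 50 passed, where 21.7% of all genes did. Of the 50, 4 rose, where 1848 of the 15781 genes tested did, and 5 fell, where 1582 did. Pard6b rose by 1.67 ± 0.38, and the Src family kinases Yes1 and Src rose by 0.85 ± 0.23 and 0.51 ± 0.14. Mmp14 fell, at -2.06 ± 0.37, as did the exchange factor Vav3, at -0.85 ± 0.16, and Abl2, at -0.83 ± 0.20.

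Gut markers were looked at because Ephb3 is known from the gut. Of 9 absorptive gut cell markers 8 rose on day 5, where 16.9% of all genes did, and their mean level was 6.76 to 7.14 on the basal arrays other than 9A1 replicate 1, which had 10.43, then 8.07 to 9.01 on day 1 and 11.37 to 11.91 on day 5. Of 5 tested gut crypt markers 2 fell on day 5, where 18.5% of all genes did. These were Sox4, at -1.66 ± 0.45 (adjusted p = 0.0184), and Cd44, at -2.17 ± 0.49 (adjusted p = 0.00732). Lgr5, Ascl2 and Axin2 were not called, with changes between -0.18 and 0.00, and Olfm4 was under 5 on every array. The mean over the 6 named crypt markers was 6.84 to 7.47 on day 5, against 7.53 to 8.03 in basal culture. Of 8 tested endothelial markers 0 rose and 0 fell by limma on day 5, where 16.9% of all genes rose and 18.5% fell. The part of these genes in the members' changes was not tested.

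Over the 12 arrays some members followed each other. Pearson's r was 0.92 between Efna1 and Epha1, 0.91 between Epha7 and Ephb4, 0.89 between Efna1 and Efnb2, and -0.89 between Epha1 and Epha4. These are descriptions over arrays that fall into 3 cultures and share them. Among all genes tested, the closest to Epha1 were Tmem41b at 0.985 and Otop3 at 0.984, and to Epha2 Slc20a2 at 0.972 and Timm50 at 0.960. Epha4 was most like Ptprb at 0.988 and Eif4a1 at 0.982, and Efna1 most like Sod1 at 0.981 and Ankrd37 at 0.979. Tbc1d16 was among the closest to both Epha7, at 0.956 beside Gtf2i at 0.954, and Ephb4, at 0.961 beside Dram1 at 0.961. For Ephb3 they were Rac3 at 0.928 and Rnf157 at 0.907, and for Efnb1 Scfd2 at 0.941 and Lrp10 at 0.940.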

How the data were processed

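Total RNA of 12 BMEL samples was labelled with biotin and hybridised to Affymetrix arrays, 1 array per sample. The authors deposited log2 probe set levels, which they had summarised with RMA (R 2.3.1, as given per the submitters' processing notes). RMA includes a normalization between arrays, so differences in total RNA are not seen. The deposited values were not on 1 distribution, since the array medians lay between 6.09 and 6.24 and the SDs between 2.13 and 2.33. No detection calls were used, and precision is limited by the number of arrays.

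Of 45101 probe sets, 34945 had 1 gene in the platform annotation, and 932 with several, 9160 with none and 64 controls were left out. Gene positions and promoters came from RefSeq tables of GRCm38. From the deposited log2 values, 1 limma model (limma 3.58.1, statmod 1.5.0, R 4.3.3) with 6 group means, empirical Bayes moderation and a variance trend was fitted to all 12 arrays, and p-values were adjusted by Benjamini-Hochberg over the 15781 genes tested. The model was first run on simulated data with independent errors and 1 spread per gene. That setting lacks the unequal spread seen here, where differences between replicates had an SD of 0.196 in day 5 14B3 and 0.896 in basal 9A1. It therefore does not vouch for the p-values of these arrays.

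The members, the lists and the tests were chosen with earlier results of these data known. The text names every member, every other family gene that was called, the 3 largest called rises and falls of the signalling list in each comparison of cultures, and the 2 genes most correlated with each member called in any of them. Alternatives changed the filter, the probe set rule, the normalization, the variance model, the block, the line, the arrays and the threshold.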

Additional observations from a re-analysis of the deposited data

Results flagged for a closer look

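Among the 27 sets of 4 arrays of a culture, over the 9 measured members, a single value stood far from the others. Ephb4 in day 1 aggregates was at 9.92 on 9A1 replicate 1, while the other 3 day 1 arrays lay between 9.53 and 9.56. The gap to the nearest array made up 0.915 of the range, above Dixon's critical value for 4 samples. Chance alone picks out about 1 in 20 such sets. Without this array Ephb4 still passed the test between day 1 and basal culture.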

How the results depend on the processing

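The calls of Epha1, Epha4, Ephb3 and Efna1 between day 5 and basal culture held in all 12 fits that left out 1 array. The call of Epha2 on day 1, and those of Epha1, Epha4, Epha7 and Ephb4 between day 5 and day 1, also held in these 12 fits. Over these fits the number of members called was 1 to 5 on day 1, 4 to 7 on day 5, 4 to 7 between day 5 and day 1, 0 to 2 between the lines, and 0 to 3 and 0 to 2 for the difference between the lines in the day 1 and day 5 responses. Over all genes the same counts, 2217, 5591, 3430, 43, 0 and 6 with all arrays, ran over 854 to 4794, 4166 to 6883, 1820 to 4960, 2 to 806, 0 to 1012 and 1 to 707. The lowest day 1 and day 5 counts came without basal 14B3 replicate 1 and the highest day 1 count without day 1 9A1 replicate 1. Without basal 9A1 replicate 1 and day 1 9A1 replicate 2 together, 6 members were called on day 1 and 1, Epha4, differed between the lines in the day 5 response. Over all genes 5297 were then called on day 1, 6691 between day 5 and day 1, 1674 between the lines, and 4 and 148 for the difference in the day 1 and day 5 responses.

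On day 1, 1 member was called with an adjusted p under 0.01, with array weights, with a minimum of 2-fold, with only the cultures compared in the fit and in 14B3 alone, and 0 in 9A1 alone. On day 5 the count was 3 with an adjusted p under 0.01 and 2 in 9A1 alone, and between day 5 and day 1 it was 3 in 14B3 alone and 2 in 9A1 alone. The counts for a line alone are contrasts of the fit to all arrays, with the spread shared by both lines. With all genes, day 1 calls numbered 848 with an adjusted p under 0.01, 1283 with array weights, 965 at 2-fold, 955 with only the cultures compared, 1352 in 14B3 and 296 in 9A1. Day 5 calls numbered 3680 with an adjusted p under 0.01, 2786 at 2-fold and 2398 in 9A1. Between day 5 and day 1 they were 1592, 1550 and 1561 under the same settings, and 1090 in 14B3. Between the lines they were 4 with an adjusted p under 0.01 and 27 at 2-fold, and for the difference in the day 5 response 3 with an adjusted p under 0.01, 14 with array weights and 2 with only the cultures compared. Quantile normalization turned the day 1 split of 829 higher and 1388 lower genes into 1322 and 1368.

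Calls near the threshold moved with single settings. The rise of Ephb4 on day 1 missed it with no filter, array weights, only the cultures compared or the replicate block, with an adjusted p of 0.0545 to 0.148. The rise of Epha7 on day 1 missed it with array weights (adjusted p = 0.0844), only the cultures compared (adjusted p = 0.0546) and the mean of its probe sets (adjusted p = 0.211), and its fall between day 5 and day 1 missed it with that mean (adjusted p = 0.0738). The fall of Ephb3 between day 5 and day 1 missed it with no filter, median centring, robust moderation, array weights, the replicate block or only the cultures compared, with an adjusted p of 0.0501 to 0.0908. Efnb2 on day 5 passed with median centring (adjusted p = 0.0369) and array weights (adjusted p = 0.0168), and between day 5 and day 1 with only the cultures compared (adjusted p = 0.00691) or without either basal 9A1 array. Signs turned only for changes that had not passed the test. Efna1 on day 1 was -0.47 and Efnb2 -0.37 in 9A1 alone, and without basal 9A1 replicate 2 they were -0.50 and -0.25, the lowest over arrays left out, the highest being 1.53 and 0.53 and, for Efna1 without both arrays, 1.54. Epha1 on day 1 ran over -0.67 to 0.17 with single arrays left out, and was 0.38 in 14B3 alone, 0.30 without both arrays, and 0.15 and 0.07 on its other probe sets. Epha7 on day 5 was 0.02 in 9A1 alone. The causes were not tested. With the replicate number as a replicate block, 2, 6 and 5 members were called on day 1, on day 5 and between them, and 1970, 5434, 3180 and, between the lines, 28 of all genes. Differences between replicates 1 and 2 correlated at -0.303 to 0.499 over 15 pairs of groups, and 5 pairs were over 0.1. The highest were 0.499 between day 1 9A1 and day 1 14B3, and 0.376 between day 1 9A1 and day 5 9A1. The labels do not say whether equal numbers share a culture or a day, and pairing was not tested.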
